A study of Anolis sagrei with 10 samples.

Results

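Cadherins are calcium-dependent cell adhesion proteins of the plasma membrane, and protocadherins, the giant FAT and Dachsous cadherins, the multi-pass CELSR receptors and the calsyntenins are their relatives. Classical cadherins hold neighbouring cells together and are tied to actin through catenins, whereas FAT, Dachsous and CELSR proteins are known for tissue polarity and growth control. In limb buds, N-cadherin (CDH2) is known from chick and mouse for its part in the condensation of mesenchyme into cartilage.

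The 39 genes described here are those whose symbol in the authors' deposited table marks them as a numbered cadherin, a protocadherin, a FAT, Dachsous (DCHS), CELSR or calsyntenin (CLSTN) gene, or an alpha or delta catenin. CDH1 and CDH5 were left out by the same choice, and at least 10 counts in at least 5 libraries were asked for. All 39 symbols that matched passed that count, out of 25920 identifiers in the tables, and all 39 also passed the filter on low counts used for testing. They comprise 3 type I classical cadherins, 11 type II cadherins, 3 other cadherins, 6 delta protocadherins, 1 further protocadherin, 1 clustered protocadherin, 5 FAT or DCHS genes, 3 CELSR genes, 3 catenins and 3 calsyntenins. No measured value other than that count chose them.

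RNA was sequenced from forelimb buds (5 libraries) and hindlimb buds (5 libraries) of wild type brown anole (Anolis sagrei) embryos at stage 7, numbered 1 to 5 in either limb. Per the labels' protocol both limb pairs were collected, but the labels do not say what a replicate number marks. Limb buds are mixed tissue, and the values are averages over mesenchyme, ectoderm, muscle precursors, vessels and nerve. The labels do not say whether libraries came from separate embryos, so p-values measure spread among these libraries only. Where limbs are compared within a replicate number, that is the spread of the limb difference across numbers. Totals ran from 42151036 to 54998469 counts in forelimb libraries and from 41808148 to 47180041 in hindlimb libraries. Levels are given in CPM, the count of a gene scaled to the size of its library. Limb-type genes matched the labels, with TBX5 at 428 to 554 CPM in forelimb and at most 2.88 CPM in hindlimb libraries, and TBX4 at most 0.459 CPM in forelimb and 28.3 to 51.4 CPM in hindlimb libraries. The 5 matched limb mesenchyme markers (TWIST1, MSX1, LHX9, LHX2 and MEIS2) summed to 215 to 351 CPM in forelimb and 251 to 382 CPM in hindlimb. The family together held 0.438% to 0.571% of a forelimb library's counts and 0.370% to 0.549% of a hindlimb library's counts. Hindlimb replicate 4 stood apart with that lowest share, the other hindlimb libraries holding 0.473% or more. It also had the fewest identifiers with counts, 17132 against 18024 or more in the other hindlimb libraries. The lowest forelimb share was likewise that of replicate 4. Forelimb replicate 1 stood apart in the summed level of 7 blood cell markers, 155 CPM there and 23.7 to 26.1 CPM in the other forelimb libraries. Most of that sum came from ALAS2 and SLC4A1. SLC4A1 was at 67.3 CPM there and at most 3.85 CPM in the other forelimb libraries. Not every marker followed. PTPRC was at 1.56 CPM there and 2.02 CPM in forelimb replicate 5, and SPI1 at 11.2 CPM there and 11.5 CPM in forelimb replicate 4.

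Of the 39 genes, CDH2 alone differed between the limbs past the threshold, and it was lower in forelimb. No family member was called higher in forelimb, where 0.705% of all 15595 tested genes were called. The 1 gene called higher in hindlimb stands beside 0.628% of all tested genes called in that direction. Toward forelimb, DESeq2 called 2 members, and 302 of the 14515 genes to which it gave an adjusted p. Toward hindlimb it called 1 member, CDH2, and 231 of those genes. Limma voom called 0 members and 118 of 15595 genes toward forelimb, and CDH2 and 113 genes in all toward hindlimb. Calls are at an adjusted p under 0.05 in edgeR's quasi-likelihood test with the replicate number as a block, and fold changes are forelimb over hindlimb throughout. Over both directions 1.33% of all tested genes were called. With the number left out of the fit no member was called, where 0.199% of all tested genes were, 0.103% toward forelimb and 0.0962% toward hindlimb. At an unadjusted p under 0.05 stood 8 members with higher forelimb levels and 3 with higher hindlimb levels, 28.2% of the family in all. Over all tested genes these shares were 7.44%, 6.35% and 13.8%. Without the block 3 members were under it, FAT1 and PCDH17 with higher forelimb levels and CDH2 with lower ones, where 3.95% of all tested genes had it, 2.03% toward forelimb and 1.92% toward hindlimb. Fitted log2 fold changes were above 0 in 26 of 39 members and in 50.0% of all tested genes, with a median of 0.09 against 0.00. No member reached a log2 fold change of 1 in size, which 2.74% of all tested genes did.

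CDH2 (ENSACAG00000010838) encodes N-cadherin, the classical cadherin of mesenchyme, muscle and nerve. Its levels in forelimb replicates 1 to 5 were 254, 206, 262, 249 and 178 CPM, against 386, 269, 310, 276 and 262 CPM in hindlimb replicates 1 to 5. Each forelimb library lay below every hindlimb library, the closest pair of values being those of forelimb replicate 3 and hindlimb replicate 5. The means were 229.8 CPM ± 36.1 in forelimb and 301 CPM ± 51.1 in hindlimb (SD, n = 5 each). The log2 fold change was -0.39 ± 0.07 (SE), a forelimb level 0.764 times that of hindlimb with a 95% interval of 0.684 to 0.855, and the edgeR adjusted p was 0.0218. Forelimb was lower in 5 of 5 pairs, with ratios within a pair from 0.658 to 0.902. It was the 1 member whose limbs did not overlap, an arrangement found in 1.19% of all tested genes.

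The call of CDH2 depended on the pairing, while its size varied little. Without the block the fold change was the same to 2 decimals and the edgeR adjusted p was 0.822. With the block, the call was lost without replicate number 2 (log2 fold change -0.38, adjusted p 0.142), number 3 (-0.42, 0.0986) or number 5 (-0.34, 0.0556), in fits with fewer samples. It stood without number 1 (-0.33, 0.0456) and without number 4 (-0.45, 0.0238). Fewer CDH2-expressing cells and less CDH2 RNA per cell cannot be told apart in these libraries. Of the 5 limb mesenchyme markers none was called, and their median log2 fold change was -0.18. MEIS2 was lower in forelimb in 5 of 5 pairs (-0.52, edgeR adjusted p 0.0573), TWIST1 and MSX1 had -0.27 and -0.18, and LHX9 and LHX2 had 0.15 and 0.21. The summed level of 5 matched cartilage condensation markers (SOX9, SOX5, SOX6, COL2A1 and MATN1) was 1203, 979, 1529, 951 and 896 CPM in forelimb replicates 1 to 5. In hindlimb replicates 1 to 5 it was 1379, 1224, 1612, 574 and 1240 CPM. The sum was thus lower in forelimb in each pair except number 4. None of these genes was called, and 1 had an unadjusted edgeR p under 0.05, with a higher hindlimb level. Their log2 fold changes ran from -0.35 to 0.51, with a median of -0.04. Of 3 matched nerve and Schwann cell markers none was called either, at 27.3 to 43.9 CPM summed in forelimb and 13.5 to 47.9 CPM in hindlimb. Of 3 tested kidney markers, WT1 was called higher in hindlimb and EMX2 higher in forelimb. The third was not called. Its log2 fold change, the median of the 3, was -0.22, at an unadjusted edgeR p under 0.05. PAX2, a further gene of that list, averaged 0.0425 CPM in forelimb and 0.0907 CPM in hindlimb. WT1 averaged 0.549 CPM in forelimb and 1.84 CPM in hindlimb, and EMX2 33.1 CPM in forelimb and 22.1 CPM in hindlimb, and neither was called without the block. The part of these tissues in the difference in CDH2 was not tested. The authors' deposited table has -0.30 for the log2 fold change of CDH2, at an adjusted p of 0.553. For CDH9 that table has -0.25 ± 0.14 (SE) where the fit here has -0.87 ± 0.36, so its sizes are not directly comparable with those given here.

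**Figure D1:**
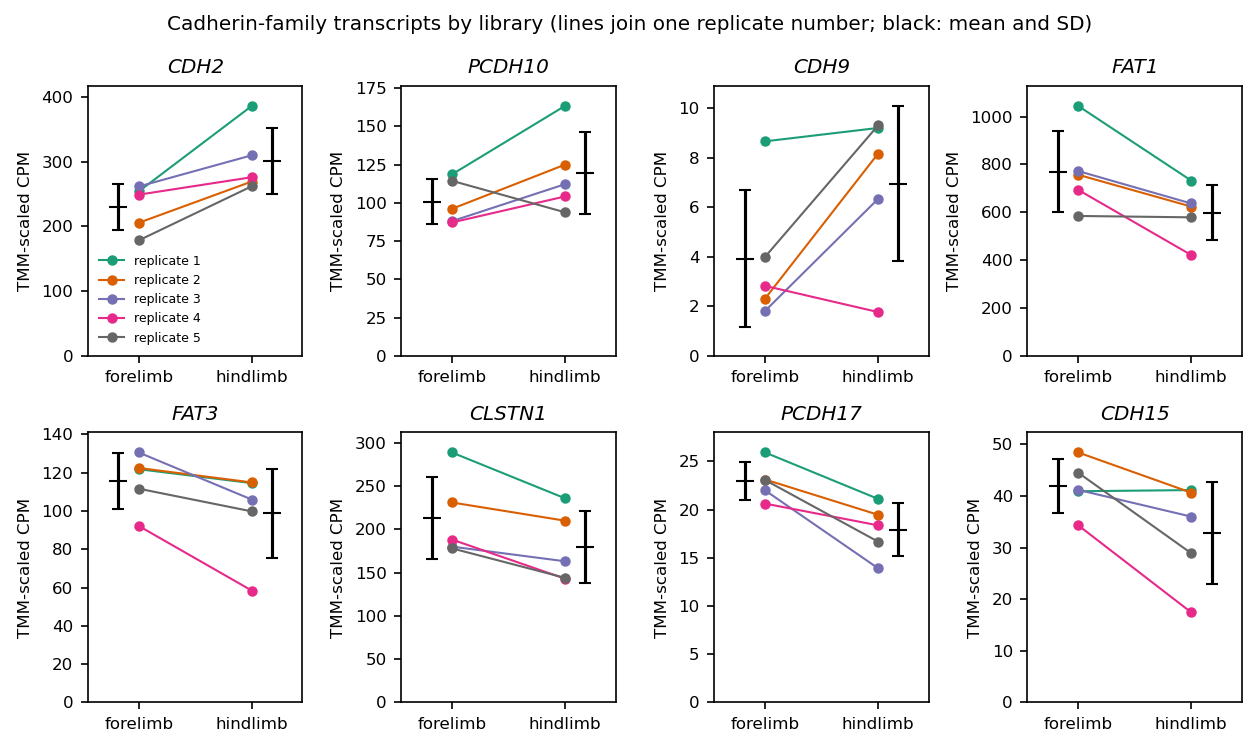
TMM-scaled CPM (vertical axis, from 0) of 8 family members in forelimb and hindlimb libraries, with lines joining libraries of the same replicate number and black marks for mean and SD (n = 5). CDH2 is lower in forelimb along each of the 5 lines, the values of FAT1, FAT3, CLSTN1 and PCDH17 lie higher in forelimb in 5 of 5 pairs, and CDH9, PCDH10 and CDH15 have 1 pair that runs the other way.

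The other type I cadherins were CDH15 and CDH4. CDH15 (ENSACAG00000016950) encodes M-cadherin, which joins myoblasts and satellite cells in mouse. It was at 40.9, 48.4, 41.2, 34.3 and 44.5 CPM in forelimb replicates 1 to 5 and at 41.1, 40.6, 36.0, 17.4 and 28.9 CPM in hindlimb replicates 1 to 5. The limbs overlapped, and hindlimb replicate 4 was the lowest of the 10. The log2 fold change was 0.40 ± 0.13 (edgeR adjusted p 0.173), and forelimb was higher in 4 of 5 pairs. Without replicate number 1 the value was 0.51 and CDH15 was called, with an adjusted p of 0.0434, and without number 4 it was 0.26 at 0.455. Of the 5 matched muscle precursor markers none was called. Their log2 fold changes ran from -0.10 to 0.53, the value of PAX3, with a median of -0.002. PAX3 was at 15.7 to 30.3 CPM in forelimb and 10.5 to 24.6 CPM in hindlimb (log2 fold change 0.53 ± 0.13, edgeR adjusted p 0.0639), MYOD1 at 54.3 to 83.6 CPM and 65.2 to 80.8 CPM, and the summed list at 192 to 334 CPM and 252 to 330 CPM. What part muscle precursors have in the values of CDH15 was not tested. CDH4, which encodes R-cadherin, overlapped between limbs at 12.3 to 24.0 CPM and 11.6 to 20.8 CPM.

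Of the 11 type II cadherins, whose adhesive domains sort neurons and mesenchymal cells, none was called, and their median log2 fold change was -0.08 against 0.00 for all tested genes. CDH11 (ENSACAG00000015087), a cadherin of mesenchyme and bone-forming cells, had close levels in both limbs. It was at 834, 855, 848, 771 and 756 CPM in forelimb replicates 1 to 5 and at 845, 946, 849, 745 and 929 CPM in hindlimb replicates 1 to 5. Its fold change was 0.944, with a 95% interval of 0.856 to 1.04, so that a difference of the size seen in CDH2 lies outside that interval.

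CDH9 (ENSACAG00000000244), studied mainly for synapses in mouse, had the largest fitted log2 fold change of the family, -0.87 ± 0.36, with an edgeR adjusted p of 0.332. Its levels were 8.67, 2.32, 1.82, 2.83 and 4.01 CPM in forelimb replicates 1 to 5, against 9.21, 8.17, 6.34, 1.77 and 9.31 CPM in hindlimb replicates 1 to 5. Forelimb replicate 1 reached hindlimb levels and hindlimb replicate 4 was below every forelimb library, so the limbs overlapped in both directions. Leaving out a replicate number gave values from -1.22 (without number 4) to -0.61 (without number 2), none of them called. With no filter on low counts CDH9 was called at an edgeR adjusted p of 0.00271, in a fit that called 697 of 22981 genes. Its log2 fold change there was about the same, -0.86, with a smaller SE of 0.21. In the RefSeq gene order of the brown anole (assembly rAnoSag1), CDH9, CDH10 and CDH12 follow one another with 0 protein-coding genes between them. CDH10 and CDH12 had log2 fold changes of 0.02 ± 0.17 and 0.18 ± 0.18. The 7 remaining type II genes, CDH6, CDH7, CDH8, CDH18, CDH19, CDH20 and CDH24, had log2 fold changes from -0.27 to 0.20.

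The 3 other cadherins were low or variable. CDH23, which forms hair-cell tip links with PCDH15, was at 15.0, 5.23, 7.89, 7.56 and 6.23 CPM in forelimb replicates 1 to 5 and at 14.4, 9.75, 11.4, 4.65 and 10.04 CPM in hindlimb replicates 1 to 5. Replicate number 1 was highest in both limbs, and the log2 fold change of -0.28 ± 0.21 was not called. It lay between -0.51 (without number 4) and -0.12 (without number 2) when a number was left out. CDH17, the liver-intestine cadherin of mammals, had 3 to 21 counts per library, and CDH26 had 7 to 75. At that depth the interval of the fold change ran from 0.396 to 3.40 for CDH17 and from 0.491 to 2.06 for CDH26. Fold changes within those bounds remain compatible with the counts.

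**Figure D2:**
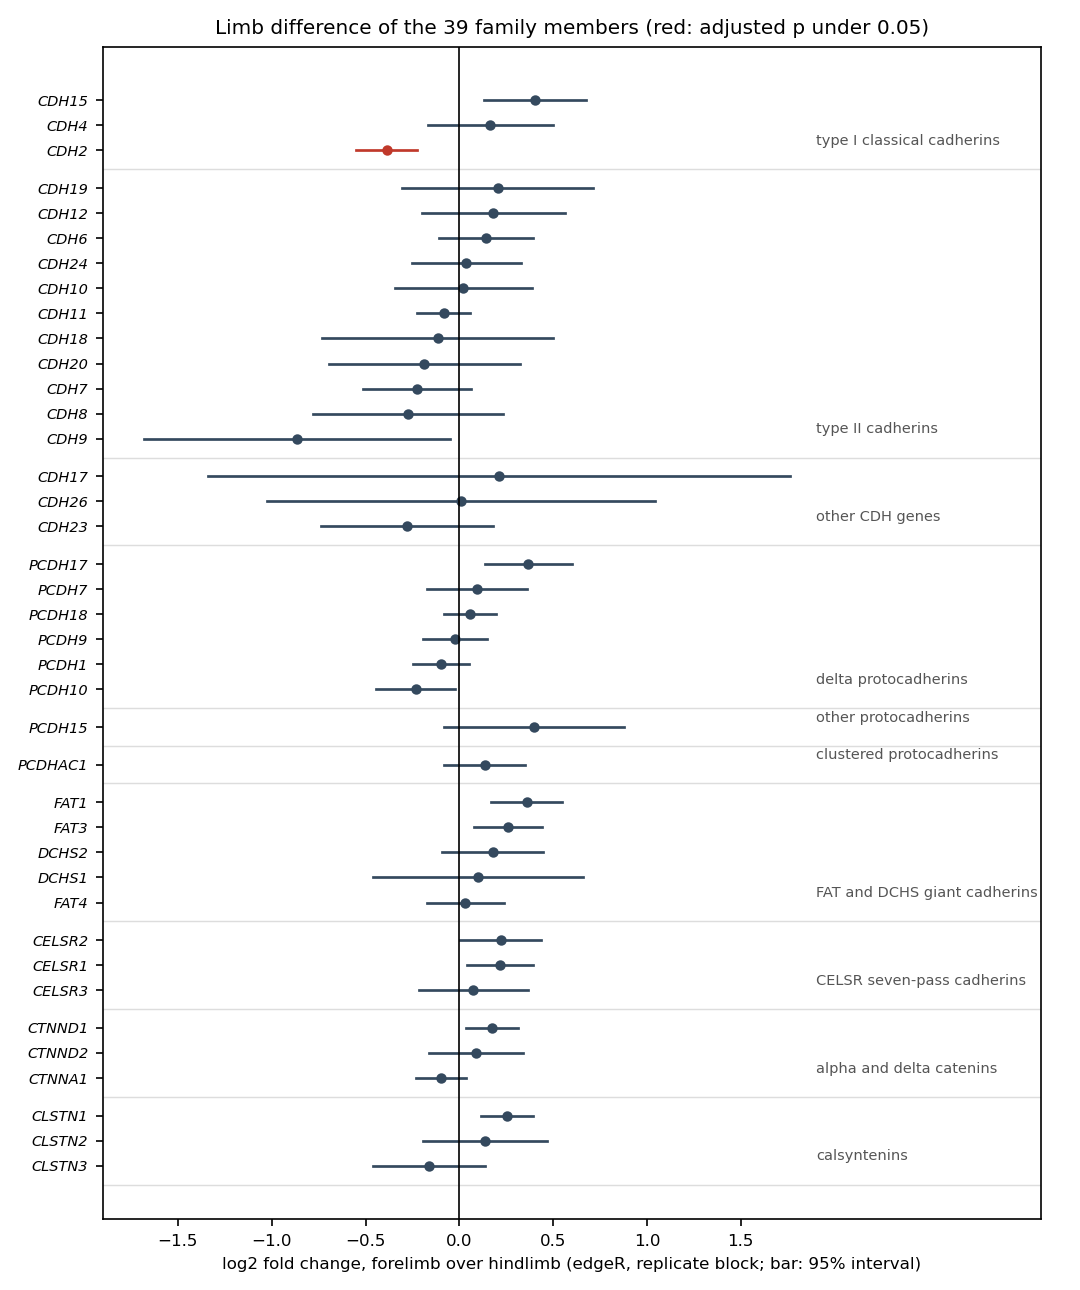
Log2 fold change of each of the 39 members, forelimb over hindlimb (horizontal axis), with 95% intervals from the edgeR fit with the replicate block, grouped by role. CDH2, at -0.39, is drawn in red as the called member. The 3 CELSR and 5 FAT and DCHS points lie right of 0, and CDH17 has the widest interval.

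The 6 delta protocadherins, which mediate weak adhesion and signal to actin, gave log2 fold changes from -0.23 to 0.37, with 3 above 0 and 3 below. PCDH17 (ENSACAG00000000482) was at 25.9, 23.1, 22.0, 20.6 and 23.1 CPM in forelimb replicates 1 to 5, against 21.1, 19.5, 13.9, 18.4 and 16.7 CPM in hindlimb replicates 1 to 5. Forelimb was higher in 5 of 5 pairs, although hindlimb replicate 1 lay above the lowest forelimb library. Its log2 fold change of 0.37 ± 0.11 was not called, at an edgeR adjusted p of 0.134, and PCDH17 was the member with the lowest adjusted p in the authors' deposited table, 0.525. Arrangements with 5 of 5 pairs in one direction were found in 9 members, 23.1%, and in 14.8% of all tested genes. Forelimb was the higher limb in 6 of them (FAT1, FAT3, CLSTN1, PCDH17, CTNND1 and CELSR2) and in 7.78% of all tested genes, and hindlimb in 3 (CDH2, PCDH1 and CLSTN3) and in 7.04%.

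PCDH10 (ENSACAG00000013841) pointed the other way. It was at 119, 96.1, 88.0, 87.2 and 114 CPM in forelimb replicates 1 to 5 and at 163, 125, 112, 104 and 93.8 CPM in hindlimb replicates 1 to 5. Forelimb was lower in 4 of 5 pairs, with number 5 as the exception. The log2 fold change was -0.23 ± 0.10 at an edgeR adjusted p of 0.308, and without number 5 it was -0.36 at 0.0274. PCDH18, its immediate neighbour in the RefSeq order, had the smallest SE of the delta protocadherins, with a log2 fold change of 0.06 ± 0.06. Its forelimb levels of 413 to 657 CPM and hindlimb levels of 349 to 607 CPM overlapped, and the interval of its fold change was 0.944 to 1.15. PCDH1, PCDH7 and PCDH9 had values of -0.10, 0.09 and -0.02.

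PCDH15, the partner of CDH23 in tip links, ranged from 2.87 to 12.1 CPM in forelimb and from 2.05 to 6.43 CPM in hindlimb. Its log2 fold change of 0.40 ± 0.22 was not called, and it was 0.26 without number 2. Of the clustered protocadherins PCDHAC1 alone had a matching symbol. It was at 35.6, 39.5, 45.3, 32.8 and 48.8 CPM in forelimb replicates 1 to 5 and at 25.1, 40.7, 37.6, 30.2 and 54.6 CPM in hindlimb replicates 1 to 5. Clustered protocadherin transcripts share exons, so reads of other isoforms may be counted there, and its log2 fold change of 0.14 ± 0.10 is uncertain on that account.

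FAT and Dachsous proteins bind each other between cells and feed into planar polarity and Hippo signalling. All 5 measured genes had log2 fold changes above 0, from 0.03 in FAT4 to 0.36 in FAT1, and none was called. Hindlimb replicate 4 was the lowest hindlimb library in all 5, as it was in 29.0% of all tested genes. FAT4 turned below 0 without replicate numbers 1, 3 or 4, and DCHS1 without number 5. FAT1 (ENSACAG00000006930) was at 1044, 757, 772, 693 and 585 CPM in forelimb replicates 1 to 5, against 732, 624, 637, 422 and 579 CPM in hindlimb replicates 1 to 5. Forelimb was higher in 5 of 5 pairs, by ratios from 1.01 in number 5 to 1.64 in number 4, while the limbs overlapped. The mean was 770.1 CPM ± 169.9 in forelimb and 599 CPM ± 114 in hindlimb (SD, n = 5 each), and the log2 fold change of 0.36 ± 0.09 had an edgeR adjusted p of 0.0648. DESeq2 with the block called FAT1 at 0.00609, and edgeR called it without replicate number 5 at 0.0182. It was not called without number 1, 2, 3 or 4 (edgeR adjusted p 0.108, 0.196, 0.213 and 0.206), nor without the block. The log2 fold change was 0.27 without number 4.

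FAT3 (ENSACAG00000014669) was at 122, 123, 131, 92.2 and 112 CPM in forelimb replicates 1 to 5 and at 115, 115, 106, 58.5 and 99.8 CPM in hindlimb replicates 1 to 5. Number 4 was lowest in each limb, and forelimb was higher in 5 of 5 pairs. Its log2 fold change of 0.26 ± 0.08 had an edgeR adjusted p of 0.186, and without number 4 it was 0.16 at 0.451. DCHS1, a ligand of FAT4, varied widely within each limb, at 166, 163, 136, 96.2 and 242 CPM in forelimb replicates 1 to 5 and 219, 180, 136, 102 and 108 CPM in hindlimb replicates 1 to 5. DCHS2 was at 20.3 to 46.7 CPM in forelimb and 17.6 to 36.4 CPM in hindlimb.

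The CELSR genes encode the cadherins of core planar cell polarity. Their log2 fold changes were 0.22 ± 0.08 in CELSR1, 0.22 ± 0.10 in CELSR2 and 0.07 ± 0.13 in CELSR3, and the edgeR adjusted p were 0.256, 0.353 and 0.866. CELSR1 (ENSACAG00000007375) was at 62.9, 60.3, 74.5, 70.4 and 60.7 CPM in forelimb replicates 1 to 5, against 66.4, 51.9, 55.7, 61.0 and 48.8 CPM in hindlimb replicates 1 to 5. Hindlimb replicate 1 was the exception to a lower hindlimb level, in 1 of 5 pairs. CELSR2 was higher in forelimb in 5 of 5 pairs, at 17.1 to 26.4 CPM against 13.3 to 22.0 CPM. All 3 stayed above 0 in each of the 12 alternative fits.

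Among the catenins, CTNNA1 (alpha-E-catenin, the link from the cadherin complex to actin) and CTNND1 (p120, which keeps cadherins at the cell surface) differed in sign and neither was called. CTNND1 was at 380, 343, 375, 328 and 317 CPM in forelimb replicates 1 to 5, against 367, 314, 318, 257 and 298 CPM in hindlimb replicates 1 to 5. Forelimb was higher in 5 of 5 pairs, and the log2 fold change of 0.17 ± 0.06 was not called. CTNNA1 was at 746, 790, 754, 723 and 705 CPM in forelimb replicates 1 to 5 and at 717, 807, 816, 852 and 792 CPM in hindlimb replicates 1 to 5, a log2 fold change of -0.10 ± 0.06 with an adjusted p of 0.518. Forelimb was lower in 4 of 5 pairs, and the interval of the fold change was 0.851 to 1.03. CTNND2, a delta catenin of neurons, ran from 24.1 to 51.4 CPM in forelimb and from 21.6 to 47.6 CPM in hindlimb.

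Calsyntenins are cadherin-domain membrane proteins of synapses and of vesicle transport. CLSTN1 (ENSACAG00000013206) was at 289, 231, 180, 188 and 178 CPM in forelimb replicates 1 to 5, against 236, 210, 163, 143 and 144 CPM in hindlimb replicates 1 to 5. Forelimb was higher in 5 of 5 pairs by ratios of up to 1.32, but the spread between numbers was wider than the gap between limbs, which overlapped. The log2 fold change was 0.25 ± 0.06 at an edgeR adjusted p of 0.0740, and DESeq2 with the block called it at 0.0198. With any replicate number left out CLSTN1 was not called (edgeR adjusted p 0.0985 to 0.210), nor without the block. CLSTN2 and CLSTN3 had log2 fold changes of 0.14 and -0.16, and CLSTN3 was lower in forelimb in 5 of 5 pairs.

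Most of the spread in the family followed the replicate number rather than the limb. The number held a median of 67.5% of a member's variance on the log2 scale and the limb 5.12%, and over all tested genes these medians were 66.2% and 5.48%. The limb held more than the number in CDH2 (46.2% and 44.5%), PCDH17 (55.4% and 31.9%) and CTNNA1 (33.0% and 31.6%), and less in the other 36 members. Over all tested genes the number held more than the limb in 14592 of 15595, so this order was not particular to the family. The replicate number has more levels than the limb, so its share is not directly comparable with that of the limb. The widest ranges between numbers were in CDH9, at 3.68-fold, and PCDH15, at 3.38-fold, while CTNNA1 varied 1.09-fold.

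Replicate number 1 held the highest level of its limb in 16 members in forelimb and 16 in hindlimb, 41.0% each, where 26.0% and 26.6% of all tested genes were highest. In forelimb, replicate 5 was lowest in 16 members, 41.0%, and in 23.4% of all tested genes. Hindlimb replicate 4 was the lowest hindlimb library in 22 of 39 members, 56.4%, and in 29.0% of all tested genes. In the same library the summed ectoderm markers were at 643 CPM, against 405 to 488 CPM in the other hindlimb libraries, the nerve and Schwann cell markers at 13.5 CPM against 36.6 to 47.9 CPM, and the cartilage markers at 574 CPM against 1224 to 1612 CPM. The part of these tissues in the low cadherin values of that library was not tested. Without replicate number 4, CDH2 was again the called member, at a log2 fold change of -0.45, and 21 members had values above 0 where 26 did with all pairs.

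**Figure D3:**
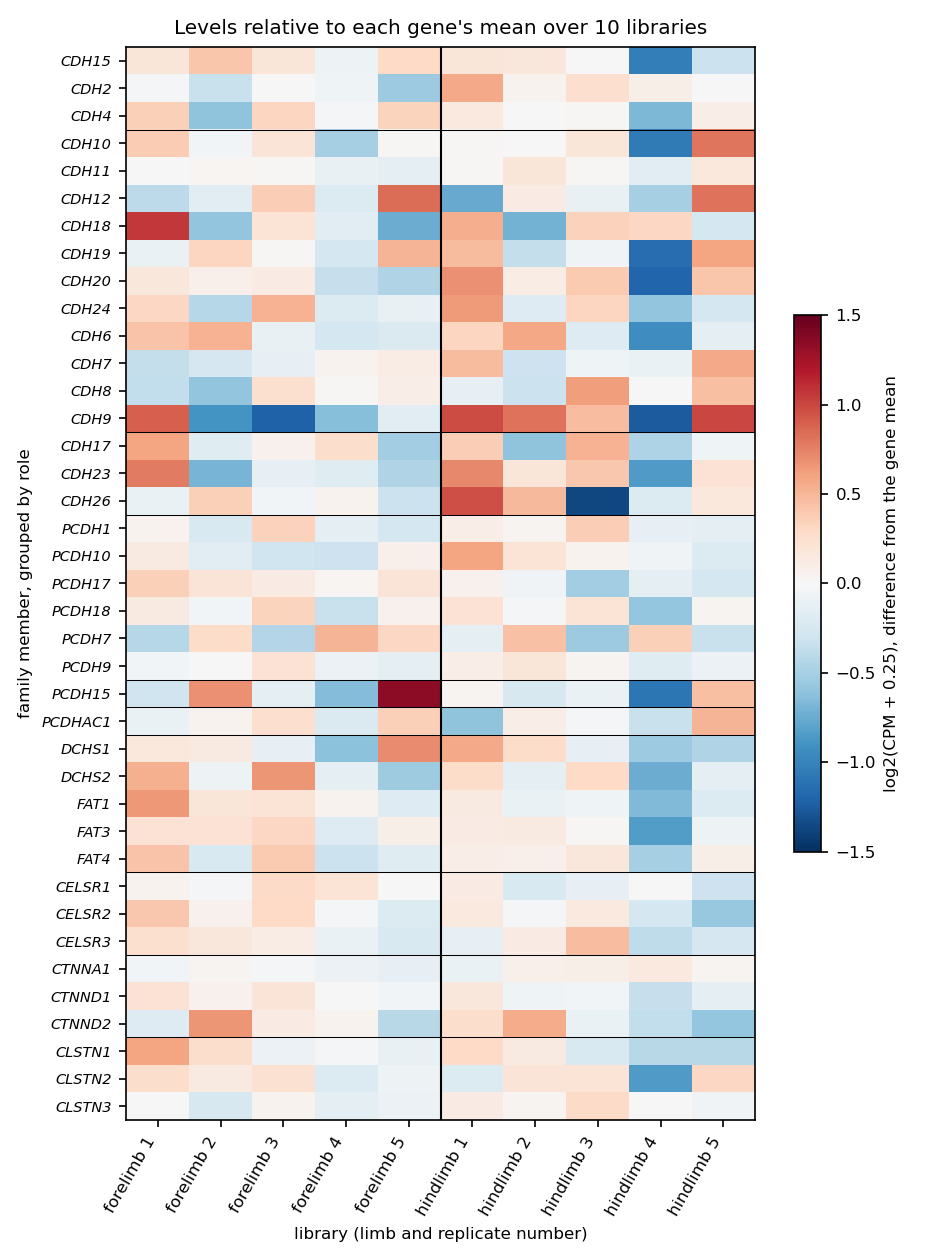
Level of each member in each library as the difference of log2(CPM + 0.25) from its mean over 10 libraries (colour, red higher and blue lower), with forelimb libraries left of hindlimb libraries and members grouped by role. The column of hindlimb replicate 4 is blue for most members, being the lowest hindlimb value in 22 of 39, and replicate 1 is red in both limbs for many.

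Partners of these proteins were taken from lists of adherens junction, desmosome, planar polarity, Fat and Hippo, WAVE complex and cadherin-switch genes. Of 94 listed symbols, in which older and newer names of a gene count apart, 71 matched and were tested. Of these 2 were called, 2.82% against 1.33% of all tested genes. At an unadjusted edgeR p under 0.05 stood 22, 31.0% against 13.8% of all tested genes. Toward forelimb and hindlimb these were 5 and 1 among adherens junction, 3 and 0 among desmosome and 3 and 1 among planar polarity genes. Among Fat and Hippo genes they were 3 and 2, among WAVE complex genes 4 and 0, and among cadherin-switch factors 0 and 0. How often hindlimb replicate 4 was lowest among them was not counted. The median log2 fold change of the 71 was 0.09, against 0.00 for all tested genes. LIX1, related to the insect gene lowfat that acts on Fat and Dachsous in Drosophila, was lower in forelimb. It was at 316, 196, 109, 248 and 202 CPM in forelimb replicates 1 to 5, against 374, 355, 215, 369 and 289 CPM in hindlimb replicates 1 to 5. Its log2 fold change was -0.63 ± 0.09 and its edgeR adjusted p 0.00554, with forelimb lower in 5 of 5 pairs. DSG1, a desmosomal cadherin of stratified epithelium, was higher in forelimb, at 7.36, 13.1, 26.6, 9.32 and 13.6 CPM in forelimb replicates 1 to 5, against 6.78, 5.61, 16.7, 5.86 and 6.34 CPM in hindlimb replicates 1 to 5. The log2 fold change was 0.76 ± 0.16 (edgeR adjusted p 0.0393), and forelimb was higher in 5 of 5 pairs. The 9 matched ectoderm markers, CDH1 among them, had 0 calls, and their sum was 459 to 541 CPM in forelimb and 405 to 643 CPM in hindlimb; their part in the values of DSG1 was not tested. Neither LIX1 nor DSG1 was called without the block, and with it no partner gene was called without replicate number 2 or without number 4.

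Among 15 adherens junction partners none was called, with a median log2 fold change of 0.05. CTNNB1 (beta-catenin, which binds the cadherin tail) was at 1649 to 1985 CPM in forelimb and 1702 to 1999.5 CPM in hindlimb. It was lower in forelimb in 5 of 5 pairs by a log2 fold change of -0.06 ± 0.06, which was not called. TJP1, a junction scaffold protein, had the largest value of that list, 0.41 ± 0.10, at an edgeR adjusted p of 0.0669. None of 15 planar polarity genes, 8 WAVE complex genes or 4 cadherin-switch factors was called, and their medians were 0.08, 0.10 and 0.03. LIX1 was the 1 call among 23 Fat and Hippo genes, whose median was 0.10, and DSG1 the 1 call among 6 desmosome genes, whose median was 0.26.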

How the data were processed

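The submitters' processing notes name FastQC for read quality, STAR as aligner, featureCounts as counter and DESeq2. Their versions, the genome build, the annotation, the strand setting and how reads matching several genes were counted are not given in the sources used here. The deposited tables hold raw read counts per identifier and library, with replicates not pooled. Per the file headers, the authors' deposited comparison table gives normalised mean counts as a signal, log2 fold changes with errors, a statistic (score) and raw and adjusted p-values. It served for gene symbols and where named.

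Counts were tested in R 4.3.3 with edgeR 4.0.16 (quasi-likelihood test, robust, TMM scaling, default filter with minimum count 10 and total 15, 15595 genes), with Benjamini-Hochberg adjustment over all of them at 0.05. The fit held the replicate number as a block because the limbs were to be compared in pairs. Deviations from the limb mean (9747 genes averaging 8 CPM or more) correlated at 0.49 to 0.76 between libraries of the same number and at -0.39 to 0.14 between others. Centring on the limb mean lowers the values between other numbers when those of the same number are high, so that gap is partly built in. The labels do not say what a number marks, so beyond that choice the pairing rests on the same-number values. The common coefficient of variation was 0.193 with the block and 0.313 without. SE come from the fold change and its F value, and CPM are TMM-scaled. Variance shares and the pairing check used log2(CPM + 0.25).

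Members named with values were those called, those with an unadjusted p under 0.05 and 5 of 5 pairs in one direction, and in each role the largest change and the smallest SE; PCDH10 and others were added after their values were seen. Members and lists were chosen with earlier results of these data known. Alternatives used limma 3.58.1 and DESeq2 1.42.0. EdgeR with and without the block, DESeq2 and limma voom were run on simulated data. The other scalings and filters and the fits without a replicate number were not. The simulated data were built from the blocked fit with its replicate effects kept, so they cannot show whether the pairing holds. RefSeq symbols (rAnoSag1) matched 35 of 39 members and served only for gene order. Protein and promoter sequences were not analysed here.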

Additional observations from a re-analysis of the deposited data

Results flagged for a closer look

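Dixon's ratio, the distance of an extreme library from the next one divided by the spread of its limb, was computed for 39 members in both limbs, 78 sets of 5 values. It passed 0.71 in 4 of the 78, and about 1 in 20 would pass by chance. Hindlimb replicate 4 was low in 3 of them. There FAT3 was at 58.5 CPM, against 99.8 to 115 CPM in the other hindlimb libraries. CDH4 was at 11.6 CPM there, against 18.7 to 20.8 CPM. FAT4 was at 219.5 CPM there, against 328 to 351 CPM. CDH23 was at 15.0 CPM in forelimb replicate 1, against 5.23 to 7.89 CPM in the other forelimb libraries, and hindlimb replicate 1 was also the highest of its limb.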

How the results depend on the processing

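Of 192 values under the alternatives for the 16 members named by the rule, 179 kept their direction and side of the threshold, 9 kept their direction and gained a call, 4, all of CDH2, lost it, and 0 reversed. The rule chose these members partly by p, pair direction, size or SE in these same data, which favours a kept direction. Apart from CDH2 they were uncalled in the main fit, so for them a kept side means staying uncalled. Outside those 16, PCDH10 gained a call without number 5, and uncalled members changed sign: CDH10 and CDH26 without the block and in limma voom, CDH10, FAT4 and PCDH9 without number 1, CDH17 and PCDH9 without number 2, CDH26 and FAT4 without number 3, CDH10, CDH17, CDH24, CDH26 and FAT4 without number 4, and CDH18, CDH20, DCHS1 and PCDH7 without number 5. The replicate block decided most calls: without it 31 genes, 0 members in hindlimb and 0 partner genes were called, against 208, 1 and 2 with it. With no filter on low counts, 697 of 22981 genes were called, 409 toward forelimb and 288 toward hindlimb. Among them were 4 members higher in forelimb (FAT1, CLSTN1, CDH15 and FAT3), 2 higher in hindlimb (CDH2 and CDH9) and 5 partner genes. DESeq2 with the block called 533 of 14515 genes with an adjusted p, 302 of them toward forelimb. Its calls included CDH2, higher in hindlimb (log2 fold change -0.39, DESeq2 adjusted p 0.000387), 2 members higher in forelimb (FAT1 and CLSTN1) and 4 partner genes. Leaving out a replicate number gave 58 to 330 genes, 0 to 1 members higher in forelimb, 0 to 1 higher in hindlimb and 0 to 4 partner genes. The 330 came without number 1 and the 58 without number 2, with 69 and 97 without numbers 3 and 4. Partner calls were 4, 0, 1 and 0 without numbers 1 to 4. The cause of these changes was not tested, and fits without a pair hold fewer samples. Other scalings, the filter of 1 CPM and limma voom kept CDH2 as the 1 called member. Leaving out a single library was not run apart from its pair, because the block leaves no contrast in its partner. Depth limits CDH17 and CDH26.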
